A study of Homo sapiens with 4 samples.

Results

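The distal part of the long arm of chromosome 17, from 60 Mb of the hg19 build to the end of the chromosome, was examined for changes in chromatin accessibility between MCF10A and G12V cells. Joining the peaks of all 4 libraries wherever they shared 1 bp or more gave 60886 regions, and the 616 of them that started at or beyond 60 Mb on chromosome 17 were taken as the members. They cover a segment of 21.2 Mb, which is 26.1% of the length of the chromosome, and the other 1048 regions of chromosome 17 served as the comparison. The segment was chosen by the peak calls of these same libraries, in which calls seen in G12V alone outnumbered calls seen in MCF10A alone. Every value of G12V against MCF10A is therefore given as a description, with no test.

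MCF10A is a cell line from human breast epithelium that divides indefinitely without being transformed and has a nearly diploid karyotype. The G12V cells are MCF10A cells into which a lentivirus had introduced HRas with the G12V change, an oncogenic form of the small GTPase, which was followed by growth arrest and later by regrowth. A GFP vector was added to follow transduction, and cells carrying the HRas vector were selected with hygromycin, so the lines differed in handling as well as in HRas. ATAC-seq was performed on 2 replicates of each line, with 1 peak list per library.

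In ATAC-seq the Tn5 transposase cuts into DNA that is not wrapped in nucleosomes, so peaks mark open promoters, enhancers and insulators. Distal 17q holds SOX9, a transcription factor of cartilage and of epithelial progenitor cells that lies in a large gene-poor stretch with many distant enhancers. It also holds ITGB4, the integrin beta 4 chain of hemidesmosomes, which anchor epithelial cells to laminin, and several kinases and adaptors that act downstream of growth factor receptors.

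In MCF10A, replicate 1 listed 12902 peaks and replicate 2 listed 34484, and in G12V the numbers were 14057 and 46698. Read depth is unknown, and the number of peaks stands in for it. A locus absent from a short list may have been open below the caller's threshold. Of 10 marker genes of basal mammary epithelium, between 1 and 4 had a promoter peak in each library, and KRT5, KRT14, TP63 and CDH1 had none in any. Of 10 markers of blood, liver, glia, muscle and endothelium, 0 had one in any library. All intervals below are 95% Wilson intervals and cover counting error only.

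Windows of regions named below are shown first, as 150 bp of the plus strand of hg19 (GRCh37) at the midpoint of the best-ranked peak of a region. Capitals mark matches to AP-1, the dimer of Fos and Jun proteins (TGACTCA, or TGAGTCA on the other strand), TEAD, the partners of YAP (GGAATG), or CTCF, the insulator protein. The printed windows are a selection and hold AP-1 matches more often than all windows of the segment did (14%). The first set is from the SOX9 neighbourhood, where gained regions were most numerous. The window at chr17:70417537-70417686 belongs to a region called in all 4 libraries, and the windows at chr17:70147771-70147920, chr17:70367219-70367368, chr17:70452367-70452516 and chr17:69406127-69406276 belong to regions called in both G12V libraries alone. The window at chr17:70464577-70464726 belongs to the region called in all 4 libraries whose rank moved most in the opposite direction.
SOX9 shared, largest rise: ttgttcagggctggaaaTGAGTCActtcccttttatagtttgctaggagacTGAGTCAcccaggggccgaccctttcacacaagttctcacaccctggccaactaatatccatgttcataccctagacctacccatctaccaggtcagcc
SOX9 gained, closest: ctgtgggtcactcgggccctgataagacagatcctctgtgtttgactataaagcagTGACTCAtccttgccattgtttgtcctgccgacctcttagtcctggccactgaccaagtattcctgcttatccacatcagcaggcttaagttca
SOX9 gained, in LINC00511: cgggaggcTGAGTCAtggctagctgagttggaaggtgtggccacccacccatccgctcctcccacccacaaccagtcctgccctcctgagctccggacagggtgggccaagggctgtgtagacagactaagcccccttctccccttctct
SOX9 gained, farther in LINC00511: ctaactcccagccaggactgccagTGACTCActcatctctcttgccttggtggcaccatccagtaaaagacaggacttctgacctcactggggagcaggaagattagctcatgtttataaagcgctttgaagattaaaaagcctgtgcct
SOX9 gained, upstream: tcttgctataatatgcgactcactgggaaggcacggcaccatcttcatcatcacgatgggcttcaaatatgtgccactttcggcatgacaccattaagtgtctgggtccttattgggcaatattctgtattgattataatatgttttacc
SOX9 shared, largest fall: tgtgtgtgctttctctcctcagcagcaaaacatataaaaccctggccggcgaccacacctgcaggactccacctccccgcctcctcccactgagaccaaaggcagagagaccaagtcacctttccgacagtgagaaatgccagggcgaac

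The second set holds the best-ranked gained region, in an intron of PITPNC1 (chr17:65386806-65386955), the best-ranked gained region at a gene start, at MRPL38 (chr17:73901162-73901311), a gained region near NT5C with a pair of AP-1 matches (chr17:73120494-73120643), the shared region in an intron of PRKCA (chr17:64490182-64490331) and a stretch of 22 bases at the start of ITGB4 (chr17:73717456-73717477), which lies in the one lost region.
PITPNC1 gained: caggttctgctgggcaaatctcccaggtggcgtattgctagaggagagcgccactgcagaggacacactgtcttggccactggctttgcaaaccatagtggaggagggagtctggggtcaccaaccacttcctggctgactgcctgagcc
MRPL38 gained: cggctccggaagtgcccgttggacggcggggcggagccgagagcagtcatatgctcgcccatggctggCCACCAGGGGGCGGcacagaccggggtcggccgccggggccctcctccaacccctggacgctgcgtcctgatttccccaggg
NT5C gained: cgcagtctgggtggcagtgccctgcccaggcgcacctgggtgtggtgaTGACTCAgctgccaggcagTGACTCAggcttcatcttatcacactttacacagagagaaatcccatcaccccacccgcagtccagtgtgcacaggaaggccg
PRKCA shared: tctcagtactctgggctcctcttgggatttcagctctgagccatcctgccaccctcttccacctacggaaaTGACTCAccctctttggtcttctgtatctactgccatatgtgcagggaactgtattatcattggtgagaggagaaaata
ITGB4 lost: GGAATGcagccggtcTGACTCA

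The first question was how many of the peaks of each library lay in the segment. MCF10A replicate 1 had 64 peaks there, MCF10A replicate 2 had 262, G12V replicate 1 had 187 and G12V replicate 2 had 481. As a share of the chromosome 17 peaks of the same library these were 27.7% (22.3 to 33.8), 31.6% (28.5 to 34.8), 47.8% (42.9 to 52.8) and 38.9% (36.3 to 41.7). Both G12V shares were above both MCF10A shares, as the choice of the segment by these calls would make likely. The G12V mean of 43.4% ± 6.28 stood above the MCF10A mean of 29.7% ± 2.76 (SD, n = 2 libraries), a difference of 13.7 percentage points. Within replicate numbers the difference was 20.1 points in pair 1 and 7.34 points in pair 2 and thus differed nearly as much between the pairs as it amounted to.

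**Figure D1:**
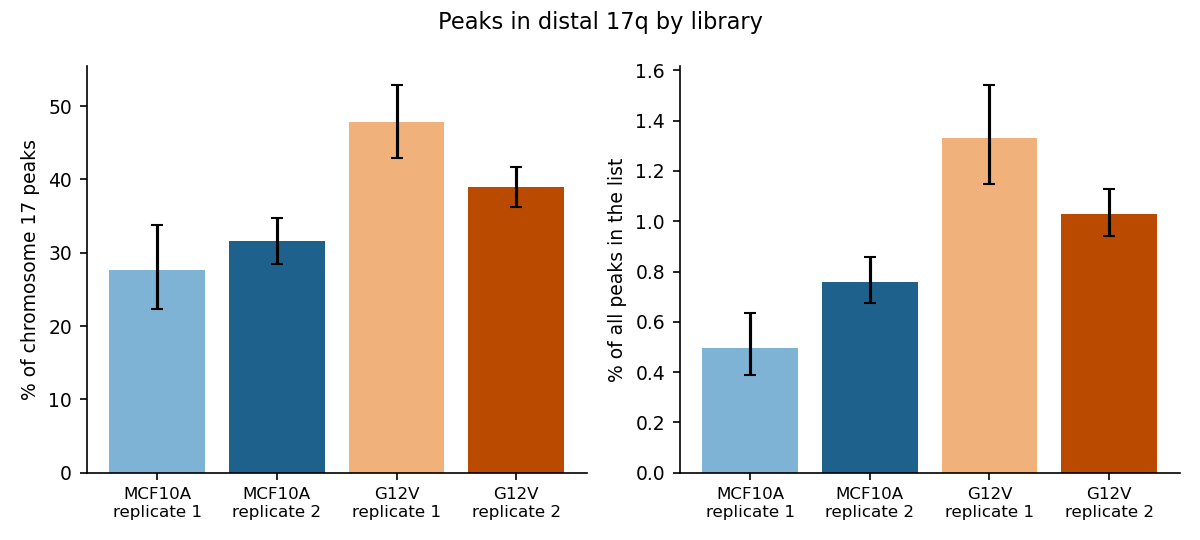
Peaks in distal 17q as a percentage of the chromosome 17 peaks (left) and of all peaks (right) of each library, with 95% Wilson intervals as error bars. Both G12V libraries sit above both MCF10A libraries in either panel, from 38.9% to 47.8% against 27.7% to 31.6% on the left.

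The same was seen against the whole list. The segment held 0.497% and 0.76% of all peaks in the MCF10A libraries and 1.33% and 1.03% in the G12V libraries, which is 2.68-fold more in pair 1 and 1.36-fold more in pair 2. The rest of chromosome 17 held 1.3% and 1.65% in MCF10A and 1.45% and 1.62% in G12V, with ratios of 1.12 and 0.982. Peaks away from gene starts carried more of the difference than promoter peaks. Among peaks outside promoters the segment took 30.1% and 33% of chromosome 17 in MCF10A and 53% and 41.5% in G12V, and among promoter peaks it took 23.9%, 29.6%, 40.1% and 33.3% in the same order of libraries. A promoter was defined by an annotated gene start with 1000 bp before it and 500 bp after it.

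List length was taken out by keeping the best 12888 peaks of every library. The segment then held 27.7% and 29.5% of the chromosome 17 peaks in MCF10A and 46.4% and 45.1% in G12V, and the replicates of a cell type were closer to each other than in the full lists.

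Gained regions, with a call in each G12V library and none in MCF10A, numbered 47 of 616 in distal 17q, or 7.63% (5.79 to 10), where 3.20% of all regions in the genome were gained. Lost regions, with a call in each MCF10A library and none in G12V, numbered 1, or 0.162% (0.0287 to 0.914), where 2.14% of all regions were lost. Since these calls chose the segment, nothing is read from either count. In the rest of chromosome 17, 20 regions were gained and 12 were lost. With equal list lengths 32 of 238 regions were gained and 2 were lost in the segment, against 5.24% and 5.19% of all regions, and 16 gained and 19 lost were left among 373 regions in the rest of the chromosome.

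Counting a call in either replicate, 339 regions of the segment (55%) were seen in G12V alone and 96 (15.6%) in MCF10A alone, against 40.9% and 20.8% of all regions. Most regions of the segment, 387 (62.8%), were called in 1 library, against 63.7% in the rest of chromosome 17 and 56.4% of all regions. The longest list, G12V replicate 2, supplied 253 of the 387. Regions with a call in all 4 libraries numbered 26 (4.22%), against 8.36% of all regions.

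Regions called in 3 libraries leaned the same way. Of these, 70 had both G12V libraries and 1 MCF10A library, and 9 had both MCF10A libraries and 1 G12V library. The corresponding numbers were 71 and 41 in the rest of chromosome 17 and 4142 and 3236 over the genome. The 173 regions of the segment that both longer lists shared (MCF10A replicate 2 and G12V replicate 2) allowed a view of the shorter lists. G12V replicate 1 called 94 of them (54.3%, 46.9 to 61.6) and MCF10A replicate 1 called 35 (20.2%, 14.9 to 26.8). Among the 328 such regions in the rest of the chromosome, G12V replicate 1 called 37.8% and MCF10A replicate 1 called 29.3%.

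The profile along the chromosome placed the beginning of the pattern before the edge of the segment. In 5-Mb bins, replicate 2 had 0.929 to 1.31 times as many peaks in G12V as in MCF10A up to 45 Mb, 1.74 to 2.06 times as many between 45 and 60 Mb, and 1.29 to 2.18 times as many in the segment, where the whole lists differed 1.35-fold. In pair 1, whose lists differed 1.09-fold, the ratio ran from 2.06 to 4.36 in the segment and was highest between 70 and 75 Mb. Pair 1 rests on few peaks per bin, and outside the segment its ratio ran from 0.5 to 2.2, with 2.11, 1.24 and 2.14 in the 3 bins from 45 to 60 Mb. Gained regions per bin numbered 8, 8, 20, 10 and 1 from 60 Mb to the end of the chromosome. The stretch from 45 to 60 Mb held 13 gained and 4 lost regions of 359, and the 45 Mb before it held 7 gained and 8 lost of 689. In that first stretch the share of chromosome 17 peaks was 49.4% and 49% in MCF10A and 28.1% and 36.5% in G12V.

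**Figure D2:**
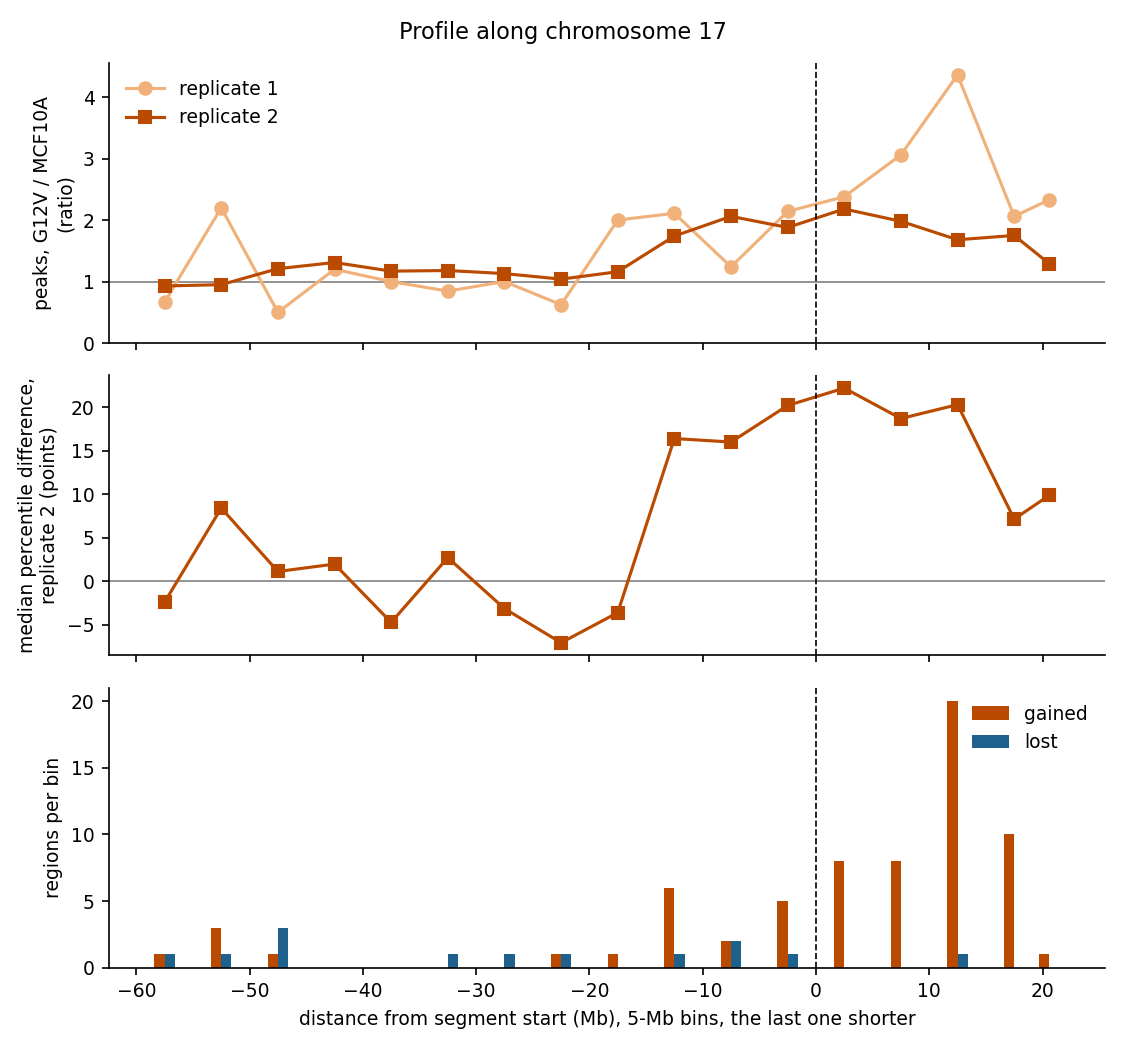
Ratio of peak counts (top, G12V over MCF10A), median difference in score percentile in replicate 2 (middle, in points) and gained and lost regions (bottom) in 5-Mb bins of chromosome 17, against the distance in Mb from the segment start (dashed line). The ratio in replicate 2 and the median difference rise about 15 Mb before the dashed line, and gained regions peak at 20 in the bin from 10 to 15 Mb past it.

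At the edge itself, the last regions outside the segment were nearest BRIP1, a DNA helicase of the Fanconi pathway. They were called in G12V replicate 2 alone, in all 4 libraries (chr17:59940216-59941508) and again in G12V replicate 2 alone. The first regions inside lay at INTS2, an Integrator subunit, and at the promoter of MED13, which is part of the kinase module of Mediator. The INTS2 regions were called in both replicate 2 libraries and in G12V replicate 2 alone. The last gained regions outside were nearest HEATR6, BCAS3 and TBX2, and the first gained regions inside were nearest MED13, MRC2 and MARCHF10, so calls on either side of 60 Mb looked alike.

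Regions called in both cell types could be compared by rank. Each peak's score was turned into its percentile within its own list, which puts the lists on a common scale but does not remove their length, since a longer list holds more weak peaks below a shared one. In the 173 regions shared by the replicate 2 libraries the median percentile was 53.6 in MCF10A and 76.8 in G12V, and the median difference was 17.4 points. It was higher in G12V in 139 of these regions (80.3%, 73.8 to 85.6). In the rest of chromosome 17 the median difference was 4.16 points and 60.4% of 328 regions ranked higher, and over the genome it was 4.93 points and 63.1%.

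The replicate 1 libraries shared only 28 regions of the segment, and their median difference was 4.75 points, against 1.54 in the rest of the chromosome and 1.72 over the genome. G12V ranked higher in 18 of the 28 (64.3%, 45.8 to 79.3). Over the 26 regions called in all 4 libraries the difference of the cell type means had a median of 7.82 points and was above 0 in 16 regions, with values from -45.2 to 84. The rest of chromosome 17 gave 0.47 over 55 regions. The segment medians of the replicate pairs therefore shared the direction, as they also did over the genome, but not the size. Between 70 and 75 Mb, replicate 1 had a median of -8.33 over 5 regions and replicate 2 one of 20.3 over 51. The higher ranks were found at promoters (11.5 points, 75 regions in replicate 2) and away from them (28.3 points, 98 regions).

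The stretch from 45 to 60 Mb gave a median of 17.3 points over 119 regions in replicate 2 and 7.03 over 23 regions in replicate 1. The 45 Mb before it gave -0.671 over 209 regions and -0.648 over 36. Peaks were wider as well. In regions shared by the replicate 2 libraries the median ratio of peak width, G12V over MCF10A, was 1.46 in the segment and 1.16 in the rest of chromosome 17, and in replicate 1 it was 1.17 and 1.07. Median peak width in the segment was 415.5 and 508 bp in the MCF10A libraries and 423 and 679 bp in the G12V libraries, so it moved with the number of peaks listed in each library.

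**Figure D3:**
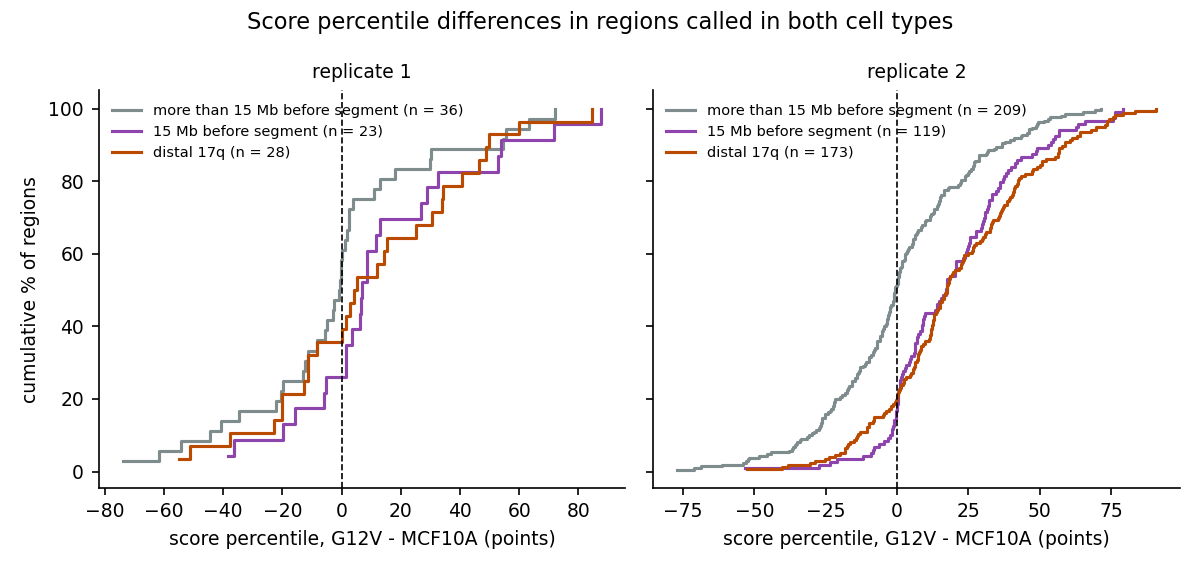
Cumulative percentage of regions against the difference in score percentile (G12V minus MCF10A, in points) in replicate 1 (left) and replicate 2 (right), for distal 17q, the 15 Mb before it and the chromosome before that. In replicate 2 the curve of distal 17q (n = 173, median 17.4) runs with that of the stretch before it (n = 119, median 17.3) and to the right of the rest (n = 209, median -0.671).

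The gained regions lay nearest 38 protein-coding genes, and 5 of these had at least 2. By position, 17 were in introns of protein-coding genes, 11 in introns of long non-coding genes, 9 in exons and 10 between genes. Promoters held 10 of the 47 (21.3%, 12 to 34.9). With coding and long non-coding gene starts counted alike, 34 others lay within 100 kb of a start and 3 lay farther away. Distances to the nearest protein-coding start were often longer and reached 710.8 kb. Their median percentile was 35.2 in G12V replicate 1 and 50.1 in G12V replicate 2, against 39.6 and 55.7 for all 1951 gained regions of the genome, so they ranked no higher than gained regions elsewhere. The lower of the 2 percentiles ranged from 0.256 to 70.7, with a median of 24.4.

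SOX9 had 6 gained regions, the most of any gene, and also the most regions of any kind. The gene starts at chr17:70117161 on the plus strand, and 53 regions had it as the nearest protein-coding start. The gained ones are 11.3% (5.29 to 22.6) of these, an interval that holds the 7.63% of the whole segment. MCF10A replicate 1 called 9 of them, MCF10A replicate 2 called 28, G12V replicate 1 called 20 and G12V replicate 2 called 50. G12V thus had more calls than MCF10A within each replicate number, although G12V replicate 1 had fewer than MCF10A replicate 2. The SOX9 promoter had no peak in MCF10A replicate 1, and its peak stood at percentile 23.4 in MCF10A replicate 2, 50 in G12V replicate 1 and 97 in G12V replicate 2.

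Downstream of SOX9, the long non-coding gene LINC00511 (chr17:70286232-70636611, minus strand) held 23 regions, of which 5 were gained, 0 were lost and 4 were called in all libraries. In the whole segment 7.63% of regions were gained, and 3.20% over the genome. The gained region starting at 70609608 was nearest SLC39A11, and the others in LINC00511 were already counted for SOX9. Calls in LINC00511 numbered 4 and 10 in MCF10A and 12 and 22 in G12V. The shared region at chr17:70417143-70418035, whose window with a pair of AP-1 matches heads the sequences above, stood at percentiles 11.5 and 9.03 in MCF10A and at 96.1 and 92.5 in G12V. Its difference of 84 points was the largest of the 26 regions called in all libraries, and the groups did not overlap. A neighbouring region at chr17:70418599-70419998 went from 8.31 and 49.5 to 68.2 and 90.6. Another at chr17:70464100-70464998 moved the other way, from 72 and 65 in MCF10A to 34.3 and 12.3 in G12V, and this was the largest fall among the 26. Rank changes around SOX9 therefore went in both directions within 50 kb.

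Upstream of SOX9, a region at chr17:69971286-69972958 stood at 66.7 and 40.1 in MCF10A and at 97.1 and 92.2 in G12V. The gained region farthest from the gene, at chr17:69405836-69406410, stood at 73.1 in G12V replicate 1 and 68.9 in G12V replicate 2, and was second among all gained regions of the segment by the lower of its percentiles. The gained regions at 70147392, 70367002 and 70452082, whose windows each hold an AP-1 match, stood at 14.5, 44.5 and 34.1 in G12V replicate 1 and at 84.5, 63.9 and 79.5 in G12V replicate 2. They were thus high in the longer list and low to middling in the shorter one.

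**Figure D4:**
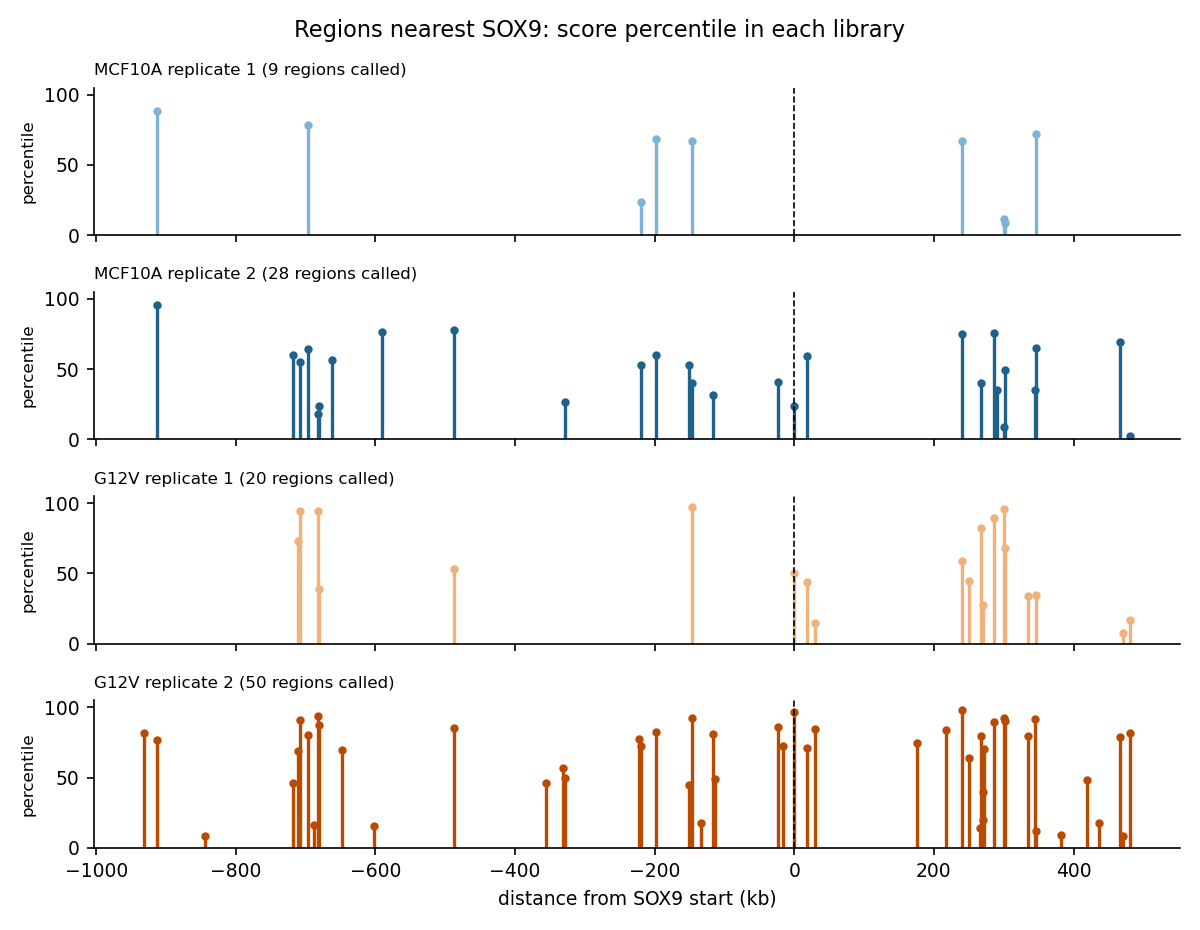
Score percentile (vertical axis, 0 to 100) of each of the 53 regions nearest SOX9, against the distance in kb from the SOX9 start (dashed line), in 1 panel per library. MCF10A replicate 1 has 9 calls, G12V replicate 1 has 20, MCF10A replicate 2 has 28 and G12V replicate 2 has 50.

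The other gained regions with the best ranks fell near genes of varied function. PITPNC1, a phosphatidylinositol transfer protein, had one in an intron at chr17:65386550-65387267, at percentiles 84 and 70.7 in G12V replicates 1 and 2. KCNJ16, an inwardly rectifying potassium channel gene, had a pair inside the non-coding gene LINC01483, at chr17:67853365-67854261 (68.4 and 93.7) and chr17:67892753-67893464 (66.9 and 68.6), both more than 100 kb from its start. AXIN2, a negative feedback component of Wnt signalling, had one between genes 202.0 kb away, at chr17:63355190-63355783 (55.9 and 89.3). None of these windows held a match to the motifs searched.

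At gene starts, the region at MRPL38, a protein of the large mitochondrial ribosomal subunit, lay at chr17:73900971-73901506, stood at 69.3 and 65.8 and held the CTCF match shown above. The region at FN3KRP, a kinase that acts on glycated proteins, lay at chr17:80674118-80674900 and stood at 72.5 and 50.1. ENDOV, a nuclease that cuts RNA at inosine, had one at 56.4 and 49.3. LRRC45, a centrosomal linker protein, had one at its start (35 and 61.2) and one 18.9 kb away in an intron of ASPSCR1 (73.5 and 19). Further promoter regions were those of MRC2, an endocytic collagen receptor, ABCA6, a member of the ABC transporters, PRCD, a photoreceptor protein, and RNF213, a ubiquitin ligase. The gained MRC2 region lay 0.469 kb from the start. A separate region over the MRC2 start was called in MCF10A replicate 1 (percentile 9.11) and G12V replicate 2 (70.7), so the MRC2 promoter was not without calls in MCF10A.

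ITGB4 was named by both a gained and a lost region. The lost region, chr17:73716944-73717834, covers the start of the gene and its 5′ UTR, and it stood at percentile 10.4 in MCF10A replicate 1 and 74.3 in MCF10A replicate 2 and had no peak in either G12V library. It was the only lost region of the segment, and the stretch printed above holds a TEAD match and an AP-1 match 9 bases apart. The gained region, chr17:73703054-73703835, lies 13.6 kb upstream in a UTR of SAP30BP, and it stood at 64.5 and 50.9 in G12V and had no peak in MCF10A. Calls at the promoter and at the upstream region thus separated the cell types in opposite directions.

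Other gained regions, by nearest gene, can be grouped by role, although the nearest gene was not always the one that held the region. The SPHK1 region lay in a UTR of PRPSAP1, the CDC42EP4 region in an intron of SDK2 and the USP36 region in an intron of TIMP2. The KCNJ2 region lay 639.8 kb from the KCNJ2 start. Signalling genes were PRKCA (protein kinase C alpha), MAP2K6 (a kinase that activates p38), SPHK1 (sphingosine kinase), RGS9 (a regulator of G proteins), CDC42EP4 (an effector of CDC42) and GPRC5C (an orphan receptor). Matrix, adhesion and secreted genes were TIMP2 (an inhibitor of metalloproteinases), C1QTNF1, FAM20A and SDK2, the last with 2 regions. Transporters and channels were SLC39A11 (a zinc transporter, 2 regions) and KCNJ2. Further regions lay nearest MED13, MARCHF10, CYB561, RPL38, KIF19, CD300LD, NT5C, TMEM235, USP36, BAHCC1 and a coding gene listed only as ENSG00000266076. Of these, the NT5C region stood at 75.7 and 42.2, the CYB561 region at 76.2 and 47.2 and the SLC39A11 region inside LINC00511 at 47.8 and 58.5, and the weakest, also nearest SLC39A11, at 0.256 and 15.2. Others also ranked low, with KCNJ2 at 0.723 and 11, USP36 at 9.51 and 6.04 and MAP2K6 at 4.21 and 44 in G12V replicates 1 and 2.

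**Figure D5:**
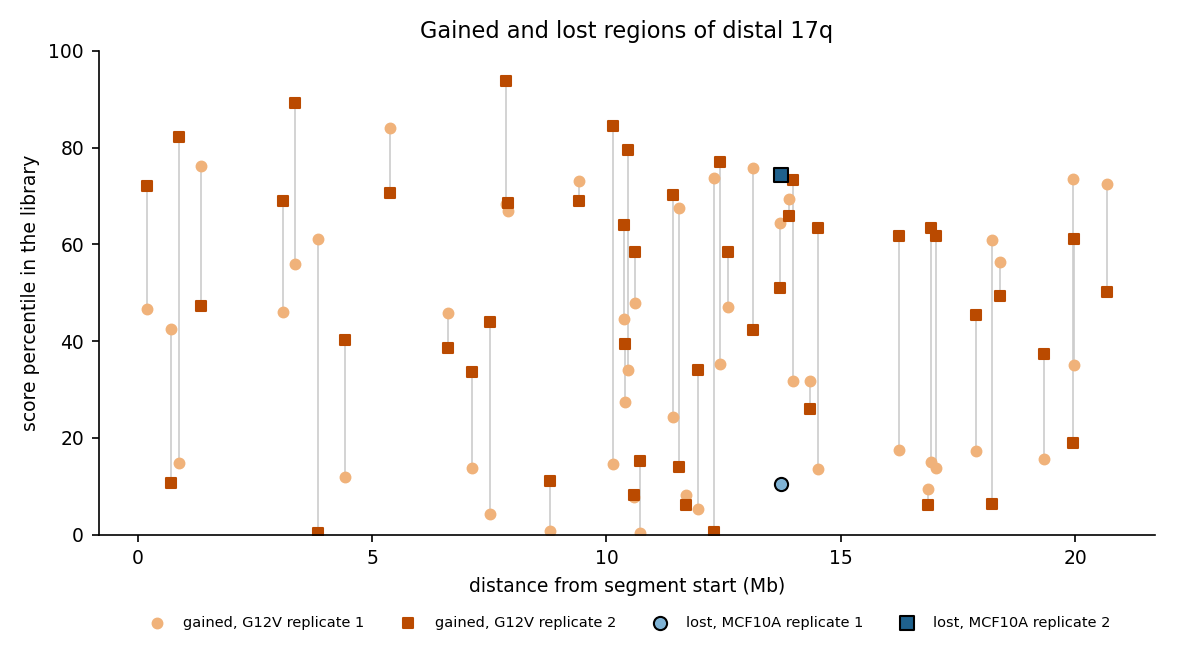
Score percentile in each library against the distance in Mb from the segment start, for the 47 gained regions (orange, G12V replicates joined by a grey line) and the lost region at ITGB4 (blue, MCF10A replicates). The replicates of a gained region often lie far apart, as at 73.8 and 0.499 for the region nearest KIF19. Values in G12V replicate 1 run from 0.256 to 84.

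Of the 26 regions called in all libraries, 11 had both G12V percentiles above both MCF10A percentiles, against 18.6% of the 5090 such regions of the genome, and 1 had both below, against 6.92%. The rest of chromosome 17 gave 9 and 3 of 55. These counts come from the contrast that chose the segment and are given as a description. The region in an intron of PRKCA at chr17:64489626-64490887, whose window holds an AP-1 match, stood at 42.1 and 31.2 in MCF10A and at 90.9 and 92.4 in G12V. The MED13 promoter stood at 51.7 and 65.7 in MCF10A and at 85.5 and 92.7 in G12V. The promoter of PRKAR1A, the regulatory subunit of protein kinase A, stood at 61.8 and 87.1 and at 96.2 and 99.2. In each of the 3, the cell types did not overlap. For PRKAR1A the means differed by 23.2 points, which is less than the MCF10A replicates differed from each other.

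P4HB, a protein disulfide isomerase, stood at 41.5 and 82.9 in MCF10A and at 88.1 and 88.5 in G12V, where the means differed by less than the MCF10A replicates did. Others overlapped. SRSF2, a splicing factor, stood at 71.1 and 73.7 in MCF10A and at 16.3 and 91.8 in G12V, so its G12V libraries lay on either side of the MCF10A pair. KPNA2, a nuclear import receptor, stood at 86.2, 82.1, 66.1 and 94.9.

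Promoter peaks were counted over lists of genes of the segment. Of all 278 protein-coding genes, 18 (6.47%) had a promoter peak in MCF10A replicate 1, 90 (32.4%) in MCF10A replicate 2, 59 (21.2%) in G12V replicate 1 and 115 (41.4%) in G12V replicate 2, and 141 had none in any library. A peak in both G12V libraries alone was found at 10 genes and in both MCF10A libraries alone at 1 gene. Between the replicate 1 libraries, 46 genes had a peak in G12V alone and 5 in MCF10A alone, and between the replicate 2 libraries the numbers were 40 and 15. Of the 911 genes of the rest of chromosome 17, 7.46%, 25.1%, 10.9% and 27.6% had a promoter peak in the same order of libraries. There 8 genes had a peak in both G12V libraries alone and 6 in both MCF10A libraries alone. Genes with a peak in G12V alone and in MCF10A alone numbered 64 and 33 in replicate 1 and 81 and 59 in replicate 2.

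The counts of the short lists that follow stand beside these shares. Among 14 genes of RAS, kinase and growth signalling, 3, 6, 3 and 9 (21.4%, 42.9%, 21.4% and 64.3%) had a promoter peak in MCF10A replicates 1 and 2 and G12V replicates 1 and 2. MAP3K3, a kinase of the ERK5 and NF-kB pathways, had one in all 4 libraries, at percentiles 77.2 and 96.4 in MCF10A and 91.4 and 98.8 in G12V. GRB2, the adaptor that links receptors to RAS activation, had one at 32.2 and 53.6 in MCF10A, none in G12V replicate 1 and one at 40.6 in G12V replicate 2. MAP2K6 had none in MCF10A replicate 1 and stood at 54.7, 68.4 and 67.8 in the other libraries. SOCS3, an inhibitor of cytokine signalling, and AXIN2 had one in G12V replicate 2 alone. No gene of this list had a promoter peak in both G12V libraries alone.

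Transcription and chromatin genes showed the largest gap between the replicate 1 libraries. Of 15 such genes, 2, 8, 7 and 9 (13.3%, 53.3%, 46.7% and 60%) had a promoter peak in the same order. BPTF, a subunit of the NURF remodelling complex, had none in MCF10A replicate 1 and stood at 68.4, 80.4 and 87 in the others. HELZ, a helicase, JMJD6, an oxygenase, SMARCD2, a subunit of SWI/SNF complexes, and SOX9 had the same pattern of calls but not all the same ranks. In MCF10A replicate 2 and G12V replicates 1 and 2, HELZ stood at 67.8, 20.2 and 67.8. JMJD6 stood at 48.2, 3.48 and 49.1, and SMARCD2 at 60.7, 4.63 and 36.7, so their calls in G12V replicate 1 were weak. The Polycomb genes CBX2 and CBX8 had no promoter peak in any library.

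The 9 genes of epithelial adhesion, polarity and cytoskeleton had 1, 3, 1 and 6 promoter peaks, and ITGB4 was the only one with calls in both MCF10A libraries alone. The 9 genes of matrix and secretion had 2, 2, 2 and 4, and the 6 genes of proliferation and survival had 1, 3, 1 and 4. In these 3 lists G12V replicate 2 had the most promoter peaks, and the replicate 1 libraries had equal numbers. Genes of other tissues had 1, 2, 2 and 4 promoter peaks among 25 genes, and 20 of them had none in any library, where 141 of the 278 genes of the segment and 590 of the 911 in the rest of chromosome 17 had none. The growth hormone and placental lactogen genes had 1 promoter peak, of GH2 in G12V replicate 2 at percentile 7.27. KCNJ2 had one in all but MCF10A replicate 1. In that library the merged region at the KCNJ2 start was called at percentile 90.9, but its peak lay outside the promoter limits. By nearest gene, 8 gained regions belonged to the transcription and chromatin list, 6 of them to SOX9 and 1 to MED13. The signalling list had 4, the epithelial list 2, the matrix list 2, the proliferation list 1 and the list of other tissues 5. Gained regions were 7.63% of the regions of the segment and 3.20% of all regions. The lists differ in how many regions lie nearest their genes, and no share per list was taken, so nothing is read from these counts.

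Gene starts and sequence did not enter the rule, but the regions themselves did, since 339 of the 616 were called in G12V alone (55%, against 42.3% in the rest of chromosome 17). The shares below are thus not independent of the calls, and they are given as a description. Promoters made up 25.5% (22.2 to 29.1) of the regions of distal 17q, 32.3% of the regions in the rest of chromosome 17 and 18.6% of all regions. The median GC content of the windows was 56.7%, 55.3% and 48.7%, and the median region width was 604.5, 525.5 and 547 bp. The promoter share moved with 1 library, and it was 32.2% in the segment when G12V replicate 2 was left out. The GC content of the segment was close to that of its chromosome.

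CTCF matches were found in 9.42% (7.35 to 12) of the windows of the segment, in 7.54% in the rest of chromosome 17 and in 6.56% of all windows. AP-1 matches were found in 14% (11.4 to 16.9), 12.7% and 15.9%. TEAD matches were found in 7.63% (5.79 to 10), 11% and 11%. Matches to the p53 element were found in 0.812% (0.347 to 1.89), 1.15% and 1.26%, and matches to the grainyhead site AACCNGTT in 0.487% (0.166 to 1.42), 1.05% and 0.856%. A match is a match of letters and not a bound site.

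Of the 47 gained windows, 7 held an AP-1 match (14.9%, 7.41 to 27.7), 3 a CTCF match, 2 a grainyhead match, 1 a TEAD match and 0 a p53 match, and 36 held none of the 5. The AP-1 share was close to the 14% of all windows of the segment and to the 16% of all 1951 gained windows. The AP-1 matches were near SOX9 (3 windows), GPRC5C, NT5C, PRCD and USP36. A count of 0 of 47 windows for p53 allows a share of up to 6.38% if the limit is set at 3 counts and of up to 7.56% by the Wilson interval. The share over the genome, 1.26%, lies below both limits.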

How the data were processed

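ATAC-seq peak lists of 2 MCF10A and 2 G12V libraries were used. As the study's methods and the labels describe, the authors aligned reads to hg19 with Bowtie and called peaks with MACS. The deposited value is the authors' MACS score per peak, 10 times the negative log10 of its p-value, and its lowest value was 40. Scores were used only as percentiles within a list. The lists hold no reads outside peaks, so the DNA content of the segment in each library was not measured.

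The 22 autosomes and X were analysed and Y peaks were left out. Peaks overlapping by at least 1 bp were merged. Positions are printed 1-based. Gene starts were those of GENCODE release 44 mapped to GRCh37 (20098 protein-coding and 18592 long non-coding genes). PECAM1 was not matched. Motifs were sought on both strands of 150 bp windows, with up to 1 mismatch for CTCF, up to 3 for p53 outside its core letters and none for the others.

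The members, gene lists and motifs were chosen with earlier results of these data known. Named regions were every gained and lost region by nearest protein-coding gene, with positions for the 8 gained regions with the highest lower percentile. The results for 2 genes are not reported here. Others printed with positions, among them the shared regions, further SOX9 regions and the NT5C region, were chosen after their values were seen. No test was run. Simulated data were used to test merging, classes, promoter overlap and the motif search. Python 3.11.15 with numpy 2.4.6, pandas 2.3.3, scipy 1.17.1, statsmodels 0.14.6, pysam 0.24.0 and matplotlib 3.10.9 was used. The alternatives tried were keeping the better-scoring 50% of a list, equal list sizes, merging within 200 bp, calls in either replicate, each replicate number as a block, other segment starts, promoter definitions and denominators, whole regions in place of windows, and leaving out each library.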

Additional observations from a re-analysis of the deposited data

How the results depend on the processing

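Gained regions outnumbered lost ones in distal 17q under each alternative run except 1, since leaving out MCF10A replicate 1 gave 49 gained and 76 lost. Leaving out a library made the definitions unequal. A call in 1 library was then enough for that cell type, while the other cell type still needed 2, so gained and lost counts are not comparable there. These calls chose the segment, so this is a description, and the counts followed the definition and the libraries used. The 47 gained regions became 25 in the better-scoring 50% of each list, 339 with a call in either replicate, and 31 with the segment starting at 70 Mb. With the replicate number as a block they were 155 in pair 1 and 307 in pair 2. Leaving out 1 library gave 49 to 300 gained regions (115 without MCF10A replicate 2, 300 without G12V replicate 1, 86 without G12V replicate 2). The single lost region became 2 with equal list sizes, 96 with either replicate, 2 from 55 Mb and 5 from 45 Mb, a start added after the data had been seen. In the replicate block lost regions were 35 in pair 1 and 77 in pair 2, and leaving out 1 library gave 1 to 76 (76 without MCF10A replicate 1, 21 without MCF10A replicate 2, 10 without G12V replicate 2).

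The difference of 13.7 points in the share of chromosome 17 peaks stayed above 0 in every alternative, and it was 0.553 points as a share of all peaks, a smaller quantity by construction. Leaving out 1 library gave 9.29 to 18.2 points. The percentile difference of 7.82 points was 17.4 in the replicate 2 pair of the replicate block and 16.8 when ranked among regions called in all libraries. Leaving out 1 library gave 1.08 to 21.1 points. The lowest came from omitting G12V replicate 2 and the highest from omitting G12V replicate 1, while omitting MCF10A replicate 2 gave 17, so its size rests on single libraries. From 70 Mb it was 1.77.

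The promoter share of 25.5% was 21.1% with protein-coding starts only and 38.4% in regions called in 2 or more libraries. Leaving out 1 library, also added after the data had been seen, gave 25.3% to 32.2%. In whole merged regions, which are longer than the windows, motif shares were 28.1% for CTCF, 3.41% for p53, 36.2% for AP-1, 32.6% for TEAD and 2.6% for grainyhead. The cause of the other changes was not tested.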
